A study of Mus musculus with 8 samples.

Results

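Pax6 binding sites nearest to homeobox genes that are not among the usual islet regulators were described in alphaTC1, a cell line from mouse pancreatic alpha cells, which make glucagon. Members were the rows of the authors' deposited table of Pax6 sites whose nearest gene belonged to the Hox, Dlx, Lhx, Barhl, Barx, Pbx, Msx, Emx, Otx, Cux, Satb, Zfhx, Tgif, Pitx, Nkx1 or Nkx3 families. The rule used gene names alone, no measured value, and left out 1 further LIM homeobox gene. It found 88 of 26244 sites, each a window of 100 bp, assigned to 31 of the 101 mouse genes in the reference gene table whose names fit the pattern. Antisense oligonucleotides had been given with a scrambled target (the group control KD) or with Paupar as the target (Paupar KD). Paupar is a lncRNA gene product made beside the Pax6 gene. Pax6 was then immunoprecipitated and sequenced (ChIP-seq). Each group had 2 Pax6 libraries, stated to be biological duplicates, and 2 input libraries, which were not analysed here. All of the cells are 1 line, and neither Paupar RNA nor expression of any gene was measured by this assay.

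Homeobox genes encode transcription factors that bind DNA through a homeodomain, a small fold that reads short AT-rich words such as TAATTA. Of the families described here, Hox genes place structures along the body axis, with the TALE-class Pbx proteins as partners. Tgif, also of the TALE class, was grouped with them. Dlx, Lhx, Barhl, Barx, Msx and Pitx genes pattern forebrain, eye and face. Cux, Satb and Zfhx proteins act through further DNA-binding domains beside the homeodomain. Pax6 itself carries a homeodomain and a paired domain, and is required in forebrain, eye and islet development. A site assigned to a gene by nearness is not thereby shown to act on that gene.

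Members within the 300 bp promoter windows of RefSeq are shown first, because there the sequence under a Pax6 site can be read. Of the 31 genes, 22 had a promoter sequence in the table used (RefSeq, build GRCm38.p6, which is mm10), and a site overlapped one at Tgif1 and at Zfhx2. The 250 bases before the start of each are printed 5′ to 3′ on the gene's strand, with the bases inside the Pax6 site in capitals.
Tgif1 (chr17:70851735-70851984, minus strand): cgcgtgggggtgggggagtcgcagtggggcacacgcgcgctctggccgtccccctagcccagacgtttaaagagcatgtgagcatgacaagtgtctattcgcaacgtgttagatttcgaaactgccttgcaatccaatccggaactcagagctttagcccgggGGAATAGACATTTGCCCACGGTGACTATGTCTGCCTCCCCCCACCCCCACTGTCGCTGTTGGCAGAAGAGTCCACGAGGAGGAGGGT
Zfhx2 (chr14:55092049-55092298, minus strand): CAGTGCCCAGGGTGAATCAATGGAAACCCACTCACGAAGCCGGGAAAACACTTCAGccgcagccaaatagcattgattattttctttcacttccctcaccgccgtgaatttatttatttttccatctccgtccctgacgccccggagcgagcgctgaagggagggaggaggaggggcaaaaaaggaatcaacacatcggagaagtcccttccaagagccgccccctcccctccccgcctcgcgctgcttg
The capitals hold 87 of the 100 bases of the Tgif1 site and 56 of the 100 bases of the Zfhx2 site. GC made up 58.8% of the printed Tgif1 stretch and 55.6% of the Zfhx2 stretch. On both strands, neither stretch held TTCACGC (a core of the paired-domain consensus), TAATTA (a homeodomain word) or the longer palindromes of TAAT and ATTA with 2 or 3 bases between them (pairs of homeodomains). These words are uncommon in promoters: over all 32851 windows of 300 bp, 1.26% held TTCACGC, 5.29% TAATTA, 0.39% the palindrome with 2 bases between and 0.487% that with 3. Among the 33 windows of genes with a member site, TTCACGC occurred in 1 (Cux1) and TAATTA in 2 (Barhl1 and Msx2), and the palindromes in 0. The words can overlap one another, a match is not shown to be a binding site, and absence says only that these letters are not in the window.

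At the Tgif1 site printed above the authors' deposited table gave mean log2 concentrations, its measure of ChIP signal, of 5.97 for control KD and 5.69 for Paupar KD. The false discovery rate (FDR) of the authors' own test was 0.801 there. Summits of Pax6 peaks, called per library, lay within 250 bp of its middle in control KD replicate 2 (score 6.54) and Paupar KD replicate 1 (6.05). Each score was set by the authors and is taken to be a −log10 q-value. One library of each group thus had a summit and the other did not. At the Zfhx2 site the concentrations were 4.94 and 4.82 (FDR 0.950) per the authors' deposited table, and summits scored 4.35 in control KD replicate 2, 4.95 in Paupar KD replicate 1 and 11.8 in Paupar KD replicate 2. Neither promoter passed the test.

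Over all members, 1 site was higher and 1 was lower under Paupar KD, taking an FDR below 0.05 as a call. The background was 3.39% higher and 0.88% lower among the 25234 sites inside the authors' adjustment (4.27% in either direction), and 85 of the 88 members were inside it. Both member calls together made up 2.35% of those 85 sites, a share not above that background. At an unadjusted p below 0.05, 4 members were higher and 7 lower, where the background was 10.7% and 6.67% of all sites. The higher site lay near Barhl2, a gene for a homeodomain factor of retinal and spinal neurons, and the lower site near Msx2, a gene for a craniofacial and limb homeodomain factor. The log2 change, Paupar KD minus control KD, had a median of -0.29 over the members and of -0.03 over all sites per the authors' deposited table. It was below 0 at 61 of 88 members (69.3%) against 51.1% of all sites. The position of 0 depends on the authors' scaling between libraries, which the sources used here do not give, whereas a change of scale by 1 constant moves members and all sites alike and leaves the distance between their medians as it is. Recentred on the sites with summits in all 4 libraries, whose median was -0.29, 44 of 88 members lay below 0 against 36.2% of all sites, and the medians were 0.0 and 0.26. Recentred on sites of similar mean signal, 55 members lay below 0 (62.5%), against 49.7% of all sites, with medians of -0.3 and 0.0.

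**Figure D1:**
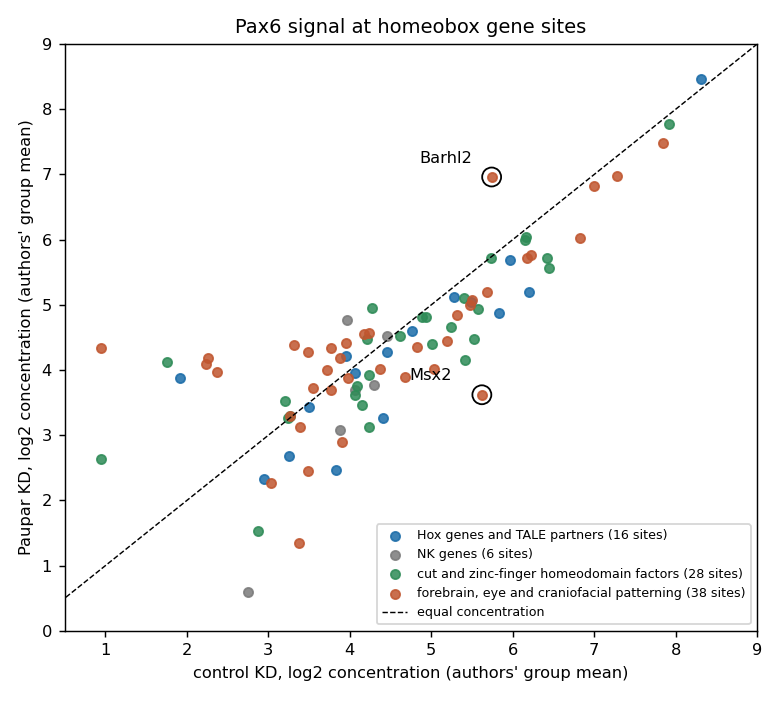
Each point is 1 of the 88 sites, with the authors' mean log2 concentration in control KD on the horizontal axis and in Paupar KD on the vertical axis, coloured by gene role; the dashed line marks equality and circles mark an FDR below 0.05. The Barhl2 site lies above the line (5.74 and 6.96) and the Msx2 site below it (5.62 and 3.62), while most of the other strong sites lie a little below the line.

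The values below 0 were not confined to strong sites. In the lowest quartile of mean concentration the median change was 0.72 over all sites and -0.07 over the 23 members, and 29.9% of all sites against 52.2% of these members were below 0. In the third quartile 19 of 21 members were below 0 (90.5%, against 57% of all sites), and in the highest 16 of 18 (88.9%, against 77.1%). These shares are a description of sites of which some lie close together, not a test.

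**Figure D2:**
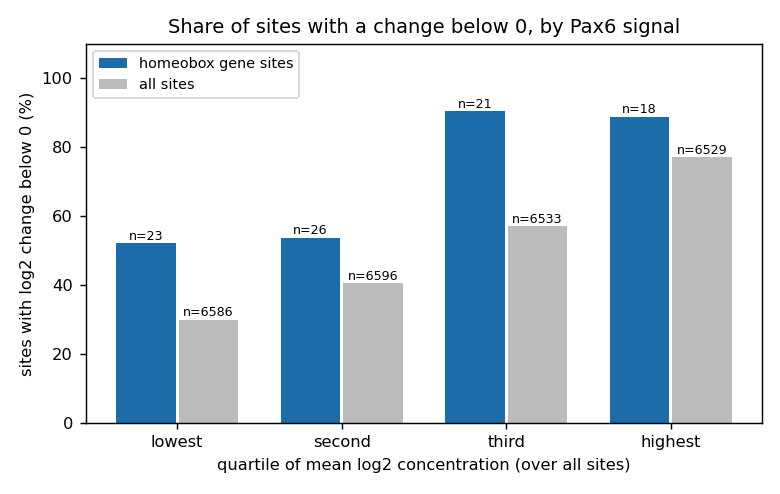
Bars give the percentage of sites with a log2 change below 0 in each quartile of mean log2 concentration, for the homeobox gene sites and for all sites, with the number of sites above each bar. The blue bars are the taller ones in each quartile, with 52.2% against 29.9% in the lowest and 88.9% against 77.1% in the highest.

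The higher Barhl2 site (chr5:106420834-106420933) is intergenic, 37.2 kb downstream of the start of Barhl2 and 31.6 kb from the gene body. Its concentrations were 5.74 without and 6.96 with Paupar knockdown, which is a log2 change of 1.23 (FDR 0.0128) per the authors' deposited table. Within 250 bp of its middle a summit was present in both Paupar KD libraries, with scores of 247 and 207, and in neither control KD library. The score of Paupar KD replicate 1 ranked 52 of 15611 in its list and that of replicate 2 ranked 88 of 17942. The control KD libraries were not without a peak there, however. Their nearest summits lay 327 and 334 bp to the left of the middle, with scores of 127 (rank 260 of 14311) and 48.2 (rank 550 of 9983). The Paupar KD summits lay 135 and 145 bp to the right, so that 462 bp separated the nearest summits of the groups. The nearest control KD summits therefore lay together, the nearest Paupar KD summits lay together, and the 100 bp window lay between them. Only the summit nearest the middle was taken from each library. A further Paupar KD summit near the control KD position would therefore not be seen here. How much of the change in the window goes with the position of the summits and how much with total signal was not tested.

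Such a separation was looked for at every site, by a rule added after this site had been seen. The rule took the summit nearest the middle from each library and ignored any others. For 16 members each library had a summit within 1000 bp. Among these, the Barhl2 site was the 1 whose nearest control KD summits both lay at least 200 bp from both nearest Paupar KD summits. Over all sites 182 of 6380 were separated in that way (2.85%), so 1 of 16 is too few to set against the background. A second member, a Barx1 site (chr13:48694517-48694616), had groups 150 bp apart, but its control KD summits differed from each other by more than that, lying at 222 and -5 bp. At the strongest Pitx1 site, by contrast, the summits of all 4 libraries lay within 55 bp of the middle.

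**Figure D3:**
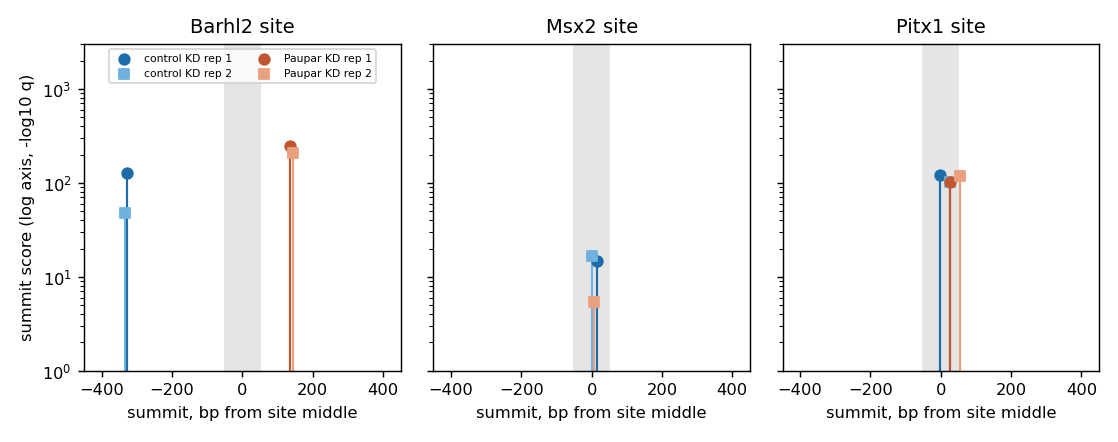
Vertical lines mark the nearest summit of each library by its distance in bp from the middle of the site (grey, the 100 bp window), with the summit score on a log axis, at the called Barhl2 and Msx2 sites and the strongest Pitx1 site. At Barhl2 the control KD summits lie at -327 and -334 bp and the Paupar KD summits at 135 and 145 bp, at Pitx1 the summits of all 4 libraries lie between -3 and 55 bp, and Paupar KD replicate 1 has none at Msx2.

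Barhl2 had 8 member sites, as many as Cux2 and more than any other gene, and its median log2 change of 1.415 was the highest of genes with more than 1 site. Of the 8, 5 had a change above 0, and the called site was the strongest of them. A site 78.0 kb upstream (chr5:106536148-106536247) had 0.95 under control KD and 4.33 under Paupar KD, with an FDR of 0.0530, just over the threshold, per the authors' deposited table. Its single summit was in Paupar KD replicate 2, with a score of 5.44. A neighbour 79.5 kb upstream (chr5:106537671-106537770) had 2.26 and 4.19 (FDR 0.251) per the authors' deposited table, and its summit, of score 8.47, was also in that library alone. Both lie in an intron of a transcript without a gene ID. A pair of further sites with higher values in Paupar KD, at 106417170 (2.37 and 3.97) and 106472364 (2.24 and 4.09), had their only summit in Paupar KD replicate 1, and their FDRs were 0.436 and 0.334 per the authors' deposited table. Each of these 4 weak sites thus rests on a summit in 1 library, and different libraries of the group at different sites. All 4 lie in the lowest quartile of mean concentration, where the median change over all sites was 0.72. In the order given, their changes were 3.38, 1.93, 1.6 and 1.85. Recentred on sites of similar mean signal, these became 2.96, 1.51, 0.95 and 1.2. The median of the gene therefore rests largely on weak sites with summits in the Paupar KD group only. The stronger Barhl2 sites closer to the gene had values on the other side of 0: 6.22 and 5.77 at 12.4 kb upstream, and 5.32 and 4.84 at 6.74 kb upstream (FDR 0.569 and 0.674) per the authors' deposited table.

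Barhl1, the other gene of this family, with a role in inner ear and cerebellar neurons, had 4 sites and 0 calls. Its strongest (chr2:28924059-28924158), 7.39 kb upstream, had 5.48 and 5.0 (FDR 0.653) per the authors' deposited table, with summits in all 4 libraries scoring 20.4 and 6.57 in control KD and 19.5 and 17.4 in Paupar KD. By the authors' annotation the remaining Barhl1 sites lay inside neighbouring genes, 1 in an exon of Ddx31 and 2 in introns of Cfap77. By RefSeq, 1 of the 2 Cfap77 sites (at 28954832) lay 0.6 kb outside the body of Cfap77, still its nearest coding gene. The nearness of these remaining sites to Barhl1 is therefore a matter of start sites, not of gene bodies. Barx1, a gene of tooth and stomach development, had 3 intergenic sites with concentrations of 3.89 to 4.68 and FDRs of 0.576 to 0.868 per the authors' deposited table.

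The lower Msx2 site (chr13:53538545-53538644) is intergenic, 65.5 kb upstream of Msx2. Its concentrations were 5.62 and 3.62, a log2 change of -1.99 (FDR 0.0307), per the authors' deposited table. Summits lay within 15 bp of its middle in control KD replicate 1 (score 14.7), control KD replicate 2 (16.6) and Paupar KD replicate 2 (5.44), and Paupar KD replicate 1 had none within 1000 bp. Both control KD scores were above the single Paupar KD score, though scores of different lists are not on a common scale. Msx1 and Msx3, genes of the same family, had 1 site each. At Msx1, 11.4 kb upstream, the values were 5.50 and 5.08 (FDR 0.698) per the authors' deposited table, with summits of 15.7, 16.1, 7.30 and 15.2 in the 4 libraries. At Msx3, 9.18 kb upstream (chr7:140058271-140058370), they were 7.28 and 6.98 (FDR 0.682) per the authors' deposited table. That is the 687th highest mean concentration of all sites, yet no control KD library had a summit within 1000 bp of the middle, and the Paupar KD summits scored 7.30 and 28.1. This site thus had a high concentration in control KD with no summit called nearby in either of its libraries.

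Among the TALE genes, Pbx2, whose product pairs with Hox proteins, had a promoter site (chr17:34593688-34593787) with 4.76 and 4.60 (FDR 0.938) per the authors' deposited table. It had no summit in any library within 250 bp, though 1 of Paupar KD replicate 2 lay at 258 bp (score 5.16). The single sites of Pbx3 and Pbx4 were weaker, with mean concentrations of 3.30 and 2.99 per the authors' deposited table.

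**Figure D4:**
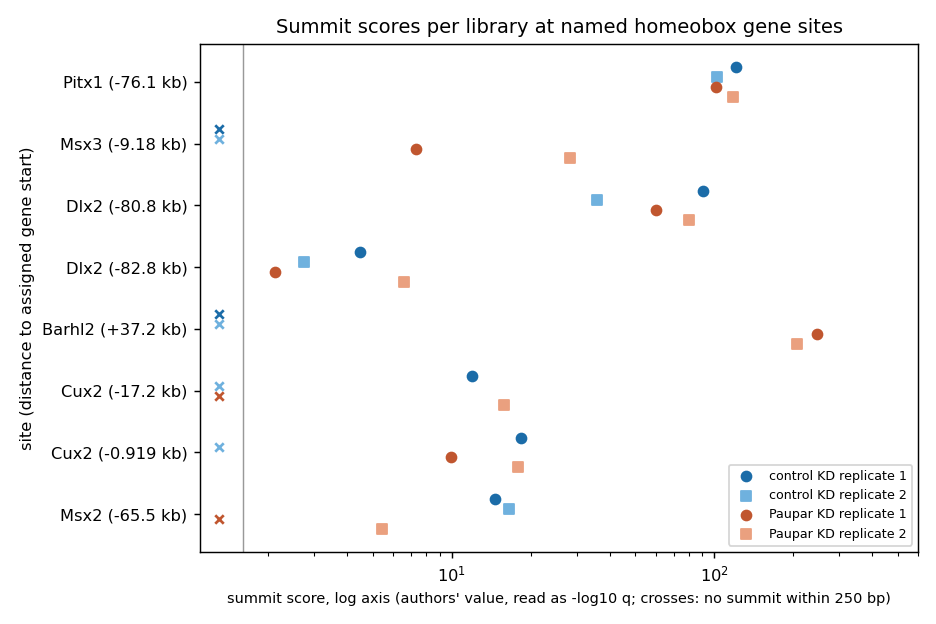
For 8 of the named sites, points give the summit score within 250 bp in each of the 4 libraries on a log axis, and crosses mark libraries with no such summit; labels give the distance to the assigned start in kb. The Pitx1 site has scores of 102 to 121 in all libraries, whereas Msx3 and the second Dlx2 site, also of high concentration, have scores of at most 28.1.

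Tgif1 encodes a TALE homeodomain repressor of retinoid and TGF-beta signalling, and its 4 sites all lay in promoters on chromosome 17 within 8.47 kb. Beside the sequence shown above, the site at 70853232 had 6.20 and 5.20, an unadjusted p of 0.0204 and an FDR of 0.177 per the authors' deposited table, with a summit of score 2.29 in control KD replicate 2 alone. The site at 70849598 had 3.50 and 3.43, and that at 70844862 had 2.95 and 2.33, with FDRs of 0.982 and 0.848, per the authors' deposited table. All 4 values of the change were below 0, and 2 of 4 after recentring on sites with summits in all libraries.

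Few sites were assigned to genes with Hox names, and any in the clusters assigned to genes of other names were not counted. Of the 43 Hox genes and antisense genes of the reference, 3 had a site, and none of these sites was called. They were weak, with mean concentrations of 3.94 to 4.36, and each had a summit in 1 library only. Hoxc8, an axial patterning gene, had 4.06 and 3.96 at 2.81 kb upstream (FDR 0.970) and Hoxc4 had 4.45 and 4.27 at 53.0 kb (FDR 0.934) per the authors' deposited table. A site near the antisense gene Hoxb5os (4.41 and 3.26, FDR 0.535, per the authors' deposited table) lies inside the body of Hoxb3 by RefSeq. No member was assigned to a gene of the Hoxa or Hoxd clusters, or to the Emx and Otx genes.

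Among the forebrain and face genes, Pitx1, a gene for a pituitary and hindlimb factor, had 6 intergenic sites reaching 118 kb upstream. The strongest (chr13:55912306-55912405, 76.1 kb upstream) had 7.84 and 7.48 (FDR 0.470) per the authors' deposited table. Its summits scored 121 and 103 in control KD and 102 and 118 in Paupar KD, a close set in which the groups overlapped. Another, 11.9 kb upstream, had 5.68 and 5.19 (FDR 0.686) per the authors' deposited table. Its summits scored 31.7 and 17.8 in control KD and 32.9 in Paupar KD replicate 2. Paupar KD replicate 1 had none within 250 bp, and its nearest summit lay at 763 bp (score 26.4). The 3 sites farthest away had means of 2.70 to 3.28 and a summit in 1 library each.

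Dlx2, a gene of forebrain interneuron development, had its strong sites in a pair 2.04 kb apart, 80.8 and 82.8 kb upstream. The first (chr2:71627520-71627619) had 7.0 and 6.82 (FDR 0.807) per the authors' deposited table and summit scores of 90.7, 35.9, 60.0 and 80.2. The second (chr2:71629564-71629663) had 6.82 and 6.02, an unadjusted p of 0.0170 and an FDR of 0.160 per the authors' deposited table. Its summits, present in all 4 libraries, scored 4.48, 2.73, 2.11 and 6.56, near the bottom of the lists of control KD replicates 1 and 2 (ranks 12717 and 9608) and of Paupar KD replicate 1 (rank 15579). In the control KD group, where the concentrations were 7.0 and 6.82, the scores of the first site were 20.2 (replicate 1) and 13.1 (replicate 2) times those of the second. Dlx3 had 6.18 and 5.72 at 6.51 kb (FDR 0.555) per the authors' deposited table, with 1 summit in each group.

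LIM homeobox genes specify motor neurons, pituitary and retinal cells. Those with Lhx names under the rule, an antisense gene included, had 9 sites at 5 genes. None of these sites had a mean concentration above 4.61 and none was called. LIM homeobox genes outside the rule are not described here. Lhx5 had 3 sites with values below 0, the largest at 116 kb upstream (5.03 and 4.01, FDR 0.383), and Lhx4 had 2 above 0 (FDR 0.556 and 0.942) per the authors' deposited table. The antisense gene Lhx1os, which starts beside Lhx1, had sites of 3.77 and 4.34 (FDR 0.750) and of 3.72 and 4.0 (FDR 0.899) per the authors' deposited table. The former had summits of 10.7 and 9.17 in the Paupar KD libraries and none in control KD. The Lhx3 site lies in an intron of Qsox2.

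**Figure D5:**
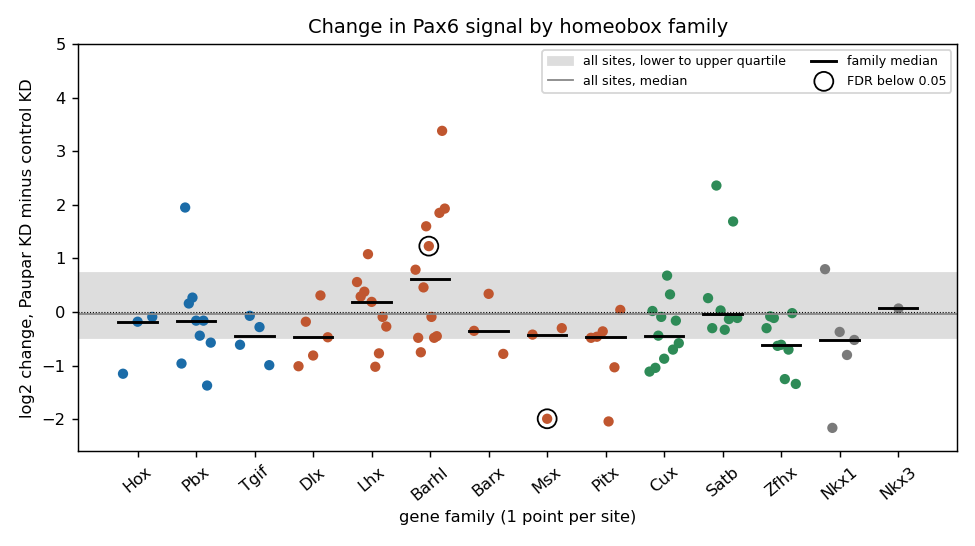
Each point is 1 site, coloured by gene role and placed by family on the horizontal axis and by its log2 change, Paupar KD minus control KD, on the vertical axis; black bars are family medians, the grey band spans the quartiles of all 26244 sites (-0.49 to 0.72) and circles mark an FDR below 0.05. The Barhl family has the highest median (0.625), and all 9 Zfhx points lie below 0 (6 of 9 after recentring on sites with summits in all 4 libraries).

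The genes that pair the homeodomain with other DNA-binding domains had 28 sites and 0 calls. Satb1, a T-cell chromatin organiser, had 5 sites. One of them (chr17:51761410-51761509) had 1.76 and 4.12, an unadjusted p of 0.0178 and an FDR of 0.165 per the authors' deposited table, with its only summit in Paupar KD replicate 2. A site 0.889 kb from it, in the same exon of a transcript without a gene ID, had 5.4 and 5.11 (FDR 0.811) per the authors' deposited table and summits in 3 libraries.

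Cux2, a gene of upper-layer cortical neurons, had 8 sites spread over its introns, promoters and upstream sequence. The strongest, at 17.2 kb (chr5:122019506-122019605), had 6.42 and 5.72 (FDR 0.272) per the authors' deposited table. At the promoter 0.919 kb upstream the values were 6.15 and 5.99 (FDR 0.877), and at 23.8 kb, in an intron, 6.44 and 5.56 (FDR 0.161), per the authors' deposited table. None of the 8 Cux2 sites had a summit in control KD replicate 2, the library with the fewest summits, while control KD replicate 1 had one at 7 of them. Cux1, the more widely expressed paralogue, had 3 sites, of which the strongest, 55.9 kb upstream, had 5.52 and 4.48 (FDR 0.291) per the authors' deposited table.

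At Zfhx3, a gene for a large neuronal zinc-finger homeodomain protein, the site at chr8:108691284-108691383 had 5.41 and 4.15, an unadjusted p of 0.0177 and an FDR of 0.164 per the authors' deposited table. Summits lay there in both control KD libraries (14.8 and 10.8) and in neither Paupar KD library, the 1 member with that pattern. The strongest Zfhx3 site (chr8:108821777-108821876) had 5.73 and 5.71 (FDR 0.985) per the authors' deposited table, with summits of 20.1, 11.2, 19.5 and 13.5. Zfhx2 had a further site of 4.89 and 4.81 (FDR 0.968) inside an intron of Thtpa, and its antisense gene Zfhx2os had 2 promoter sites, of which the stronger had 5.57 and 4.94 (FDR 0.539), per the authors' deposited table. The NK genes, with roles in skeletal and neural patterning, had 6 sites, each with a summit in 1 library, the strongest at Nkx3-2 (4.45 and 4.52, FDR 0.973, per the authors' deposited table).

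By annotation, 42.0% of members and 28.9% of all sites lay in distal intergenic sequence, and 18.2% and 27.5% in promoters; these shares were not tested. Their median distance to the assigned start was 17.7 kb, against 11.8 kb over all sites, and 29.5% against 18.6% were over 50 kb away. Of the 34 members inside an intron or exon, 13 lay in another gene or transcript than the one they were assigned to. For 74 of the 88 the assigned gene was the nearest protein-coding gene body in RefSeq. Members also share loci: 25 of them lay within 2000 bp of another member.

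Support by summits was counted in each library. Summits lay at 44 and 29 of the 88 members in control KD replicates 1 and 2, and at 39 and 51 in Paupar KD replicates 1 and 2. The means were 36.5 ± 10.6 and 45.0 ± 8.49 (SD, n = 2 each), a difference of 8.5 sites that lay within the spread between libraries (two-sided exact permutation test, p = 0.67; the smallest p possible is 0.333). The library lists themselves held 14311, 9983, 15611 and 17942 summits. With the 9983 best-scoring summits of each library the difference turned to -4.5. Paupar KD replicate 1 had a summit at 44.3% of members and 54.4% of all sites, the library with the largest shortfall. A summit in all 4 libraries was found at 10 members (11.4%, against 20.0% of all sites), in exactly 1 at 45 (51.1%, against 43.9%) and in none at 2. Both Paupar KD libraries, without either control KD library, had summits at 4 members (4.55%, against 8.26%), near Barhl1, Barhl2, Lhx1os and Msx3, and the reverse at 1 (1.14%, against 1.47%), near Zfhx3.

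Other homeobox genes, from a list of TALE, Irx, Onecut, Pou, Zeb and related genes, had 138 sites, of which 133 lay inside the adjustment. Of these, 4 were higher (near Irx3, Hlx, Meis1 and Irx1) and 2 lower (near Uncx and Mkx), 4.51% in all against the background of 4.27%. Irx3, a TALE patterning gene, had 6.45 and 7.65 at an exon site (FDR 0.00162), and Uncx, a gene of somite patterning, 7.79 and 6.68 at an intron site (FDR 0.00959), per the authors' deposited table. Their median log2 change was -0.04, and whether it differs from that of the members was not tested.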

How the data were processed

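Pax6 ChIP-seq libraries of alphaTC1 cells (2 control KD, 2 Paupar KD) were used through 1 table of 26244 sites and 4 lists of summits. Per the submitters' processing notes, Bowtie2, MACS2, DiffBind and ChIPseeker were used, without versions, on mm10; the sources used here do not give the test, the scaling between libraries or the use of input. The deposited concentrations and fold were taken to be on a log2 scale, which the headers leave unstated; they are the authors' group means, with no value per library and no error, and read depth is unknown. The deposited fold is control KD minus Paupar KD, and its sign was turned. The p-value and FDR are the authors' deposited ones; no site was retested. A further deposited column is the −log10 of the FDR, and the summit score was read as −log10 q from its lowest deposited value (2.0 to 2.01). In all, 1010 sites (3 members), with an FDR of 1 at a p below 0.99, were treated as outside the authors' adjustment.

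Computation used Python 3.11.15, pandas 2.3.3, numpy 2.4.6 and scipy 1.17.1. A summit supported a site within 250 bp of its middle; where several lay there, the highest score is given. Matching was tested on simulated data. Gene bodies and promoters came from RefSeq on GRCm38.p6, the mm10 assembly; coordinates are 1-based. The sites named were the called ones, the 10 strongest, the Hox sites, the strongest of each family, those of the genes with most sites and the 5 largest changes each way above the median signal; some sites that this rule names are not reported here, and the remaining ones were chosen after their values were seen. Members and lists were chosen with earlier results of these data known. Alternatives were other FDR thresholds, subsets of sites, recentring, other summit windows, score or list-length limits, and leaving out each library. The control KD replicate 2 list carries another number in its peak names than its title, and was assigned by its sample.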

Additional observations from a re-analysis of the deposited data

How the results depend on the processing

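At an FDR below 0.01, 0 members were higher and 0 lower in the authors' deposited test (background 1.45% and 0.143%), and below 0.1, 2 were higher and 1 lower (5.19% and 1.87%). At an unadjusted p below 0.05, 4 were higher and 7 lower (10.7% and 6.67% of all sites). Both called sites lie within 100 kb of a start, have summits in 2 or more libraries and have both concentrations above 0. The FDR was not recomputed on these subsets, so that the calls stay in them is not a test. The median log2 change of -0.29 was 0.0 after recentring on sites with summits in all 4 libraries (0.26 over all sites). It lay between -0.3 and -0.27 under the other 5 settings tried, of which that on concentrations above 0 kept all 88 members. With lists of equal length, the difference in supported members reversed to -4.5, and members with summits in both libraries of 1 group and none of the other numbered 2 (Paupar KD) and 3 (control KD). At a score of at least 5 the latter numbered 2. Leaving out a library gave differences of 1.0 to 16, the lowest without control KD replicate 2 and the highest without control KD replicate 1. With libraries paired by replicate number the difference was 8.5 (exact sign-flip p = 1.0, the smallest possible 0.5). Over all sites the replicate deviations in summit presence correlated at -0.01. These deviations rest on calls from lists of unequal length, so whether the numbers pair the libraries cannot be told from them. With a gap of 100 bp, chosen after seeing the data, 2 members had separated summits (background 6.69%). Group means without per-library values allow no refit of any call without a library.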
